A study of Mus musculus with 55 samples.

Results

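The circadian clock genes followed here were Per1, Per2, Per3, Cry1, Cry2, Arntl (also named Bmal1), Clock, Nr1d1, Dbp and Ciart. These 10 genes were chosen by name, with earlier results of these data known. Each matched 1 Ensembl identifier in the count tables, which hold 56941 genes at day 7 and 57186 at day 28, and all 10 passed the low-count filter at both days. RNA had been sequenced from the infarcted left ventricle of C57BL/6J mice after the coronary artery was tied off for good. By the sample titles the 55 libraries form 6 groups: 8 non-diabetic, 8 type 1 diabetic and 8 type 2 diabetic at day 7, and 11, 10 and 10 at day 28. All 6 groups share the strain and the infarction. Library names carry Ctrl for non-diabetic, hi STZ for type 1 and lo STZ HFFD for type 2, so diabetes type goes together with other differences between the models. The sources used here state neither the age of the mice nor the hour of tissue collection. Whether each replicate is its own animal is also unstated, so a p-value here reflects the scatter of these libraries and part of that scatter may be technical.

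The clock is a feedback loop of transcription that runs in most cells, heart muscle included. The proteins of Arntl and Clock bind together to E-box elements and switch on the Per and Cry genes, whose proteins return to the nucleus and block them. Nr1d1 encodes REV-ERB alpha, a repressor of Arntl that acts through ROR elements. Dbp encodes a transcription factor that binds D-box elements and passes the rhythm on to other genes, and Ciart encodes a repressor of the Arntl and Clock proteins. Transcripts of Arntl and of its targets Dbp, Per3 and Nr1d1 peak at opposite phases of the day. Per1 and Per2 are also induced by glucocorticoid hormones.

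Promoter stretches that hold these elements are shown because the loop is known to act through them. They were read from RefSeq windows of 300 bases (250 before and 50 after the start) of build GRCm38.p6, which is not the build of the count tables, mm39. Of the 10 genes 9 had a window, 13 in all, and Per2 had none. The motifs, searched on both strands, were the E-box CACGTG, the ROR element core TAGGTCA, the D-box TTATGNAA and the cyclic AMP element TGACGTCA. They do not overlap in the stretches below, where capitals mark them. The Per1 stretch is chr11:69098763-69098948 (plus strand, E-box and D-box), the Per3 stretch chr4:151044796-151044890 (minus strand, D-boxes) and the Cry1 stretch chr10:85185089-85185134 (minus strand, E-box). The Ciart stretch is chr3:95882247-95882364 (minus strand, E-boxes), and the Arntl stretch chr7:113207532-113207556 (plus strand, ROR element core) lies just after the start of 1 of its 2 windows.
Per1: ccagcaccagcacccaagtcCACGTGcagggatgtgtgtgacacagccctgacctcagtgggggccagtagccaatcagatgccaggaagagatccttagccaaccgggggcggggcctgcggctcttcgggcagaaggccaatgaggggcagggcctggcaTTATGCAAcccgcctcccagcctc
Per3: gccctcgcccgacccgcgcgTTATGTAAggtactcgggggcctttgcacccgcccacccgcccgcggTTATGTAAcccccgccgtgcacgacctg
Cry1: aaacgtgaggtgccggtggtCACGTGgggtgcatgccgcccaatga
Ciart: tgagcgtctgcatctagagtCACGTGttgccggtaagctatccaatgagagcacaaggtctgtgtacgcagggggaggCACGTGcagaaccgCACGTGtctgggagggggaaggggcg
Arntl: ggcagaaagTAGGTCAgggacggag
Ciart held 3 E-boxes, at 116, 58 and 44 bases before the start, and Per3 held 2 D-boxes. No match was found in the windows of Cry2, Clock, Nr1d1 or Dbp, and the cyclic AMP element was in none of the 13. Per1 and Arntl have 2 windows each, and in both genes 1 of the 2 held no match. Of 32851 windows of this length, 7.15% held the E-box, 2.61% the ROR element core, 3.38% the D-box and 1.79% the cyclic AMP element. A match describes letters in this window and shows no binding.

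Library totals ran from 10.8 to 51.2 M counts (M, mega) at day 7 and from 48.1 to 92.9 M at day 28. All 20 cardiomyocyte markers, 10 leukocyte markers and 8 fibroblast markers were counted in every library. Library names carry 1 four-digit number for all day 7 and another for all day 28 libraries, so what it marks and the day cannot be told apart, and levels are compared within a day. Levels are CPM, counts per M of the scaled library size, or their log2 with a prior count of 2. A gene is called when its p in the quasi-likelihood test of edgeR, adjusted by Benjamini-Hochberg over all tested genes, is at or under 0.05. Comparisons of type 1 and of type 2 with non-diabetic tissue share the non-diabetic libraries.

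**Figure D1:**
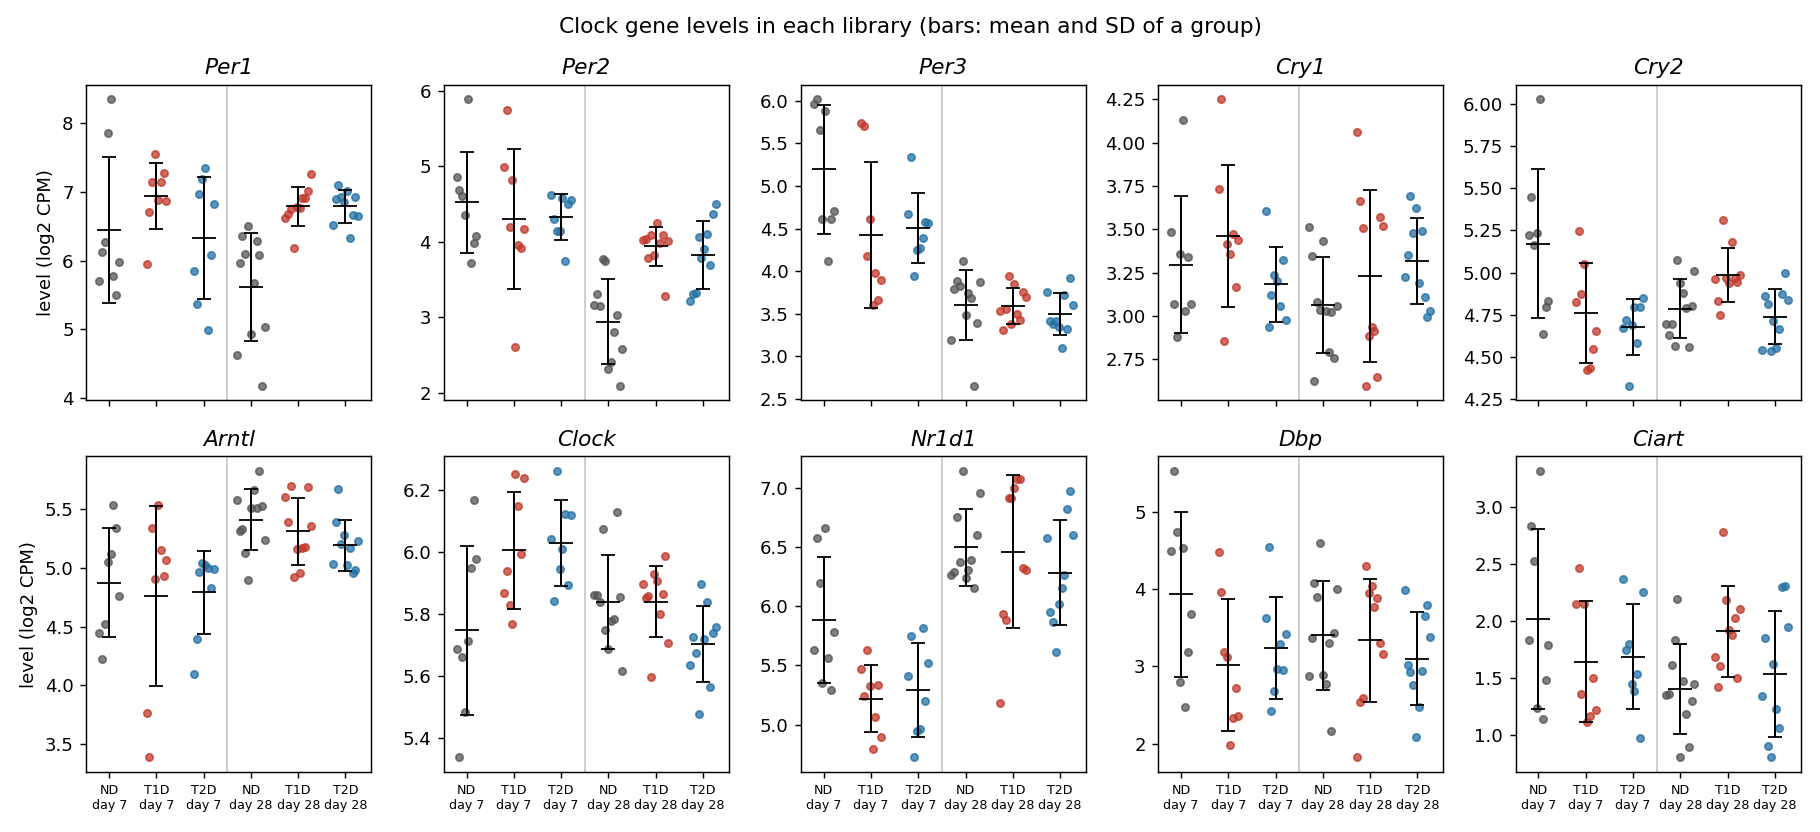
Level of each clock gene in each library, as log2 CPM on the vertical axis, for the 6 groups on the horizontal axis. Points are libraries, and bars give the mean and SD of a group. At day 28 the Per1 and Per2 points of both diabetic groups lie mostly above the non-diabetic points, and at day 7 the Nr1d1 points of both lie low.

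Per exon length, Nr1d1 had the highest median level of the 10 genes in the non-diabetic groups of both days, at 17.0 CPM per kb at day 7 and 26.9 at day 28. Per1 followed at 11.7 and 11.1 CPM per kb. The ranges of these 2 genes overlapped at day 7, and at day 28 the lowest Nr1d1 library (23.1 CPM per kb) lay above the highest Per1 library (16.1). In the diabetic groups of day 7 the order was the other way, with medians of 22.9 CPM per kb for Per1 and 12.7 for Nr1d1 in type 1 and 16.0 and 12.9 in type 2 tissue, and their ranges overlapped. In non-diabetic tissue Ciart had the lowest median, at 1.53 and 1.12 CPM per kb. At day 7 Dbp (5.86), Cry2 (5.79), Arntl (3.99), Per3 (3.98), Per2 (3.81), Clock (3.78) and Cry1 (2.76) lay between, with ranges that overlapped from each gene to the next. Exon lengths came from GENCODE M21 on GRCm38, so levels per kb are approximate.

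At day 7, Nr1d1 and Cry2 fell in both diabetic groups against non-diabetic tissue, and no member rose. In type 1 infarcts 2 of 10 members were called, both lower, beside 22.5% of all 18165 tested genes called in either direction and 11.4% called lower. In type 2 infarcts 2 of 10 were called, both lower, beside 7.35% in either direction and 3.5% lower. The type 1 count is near the share of all genes. The median log2 change of the 10 genes was -0.29 in type 1 and -0.41 in type 2 tissue, beside -0.01 and -0.03 over all tested genes.

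Nr1d1 stood at 39.2, 52.2 and 101 CPM in the lowest, median and highest non-diabetic library at day 7. In type 1 tissue these values were 27.7, 38.9 and 49.5 CPM, and in type 2 tissue 26.4, 39.5 and 56.3 CPM. All 8 libraries of each diabetic group lay below the non-diabetic mean of log2 CPM, 4 of each lay below every non-diabetic library, and the ranges overlapped. The log2 change was -0.73 (SE 0.20, edgeR adjusted p = 0.00941) in type 1 and -0.63 (SE 0.19, edgeR adjusted p = 0.047) in type 2 tissue, n = 8 against 8. Without any single library of the day the type 1 call was kept, with changes from -0.80 to -0.60. The type 2 call was lost in 15 of 24 such fits, the weakest without non-diabetic replicate 2 (-0.52, adjusted p = 0.117). It was also lost without the low-count filter (adjusted p = 0.0737), with the 2 compared groups alone (adjusted p = 0.0764) and with the replicate number as a block (adjusted p = 0.0787).

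Cry2, which encodes a cryptochrome of the repressor limb, stood at 24.8, 36.6 and 65.2 CPM in the lowest, median and highest non-diabetic library. Type 1 libraries had 21.45, 26.7 and 38.0 CPM and type 2 libraries 20.05, 26.0 and 28.8 CPM. The non-diabetic group reached higher, and the low ends of the 3 groups overlapped. Cry2 changed by -0.45 (SE 0.15, adjusted p = 0.0373, lower in 7 of 8 libraries) in type 1 and by -0.55 (SE 0.15, adjusted p = 0.0316, 8 of 8) in type 2 tissue, in edgeR with n = 8 against 8. These calls were lost in 10 and 9 of 24 fits that left out 1 library, with changes of -0.29 and -0.38 without non-diabetic replicate 5, the highest Cry2 library. With the compared groups alone the type 1 call was lost (adjusted p = 0.0891). Of the exon bases of Nr1d1 8.5% overlap Thra on the opposite strand, and of those of Cry2 4.7% overlap D930015M05Rik. The sources used here do not state the strand setting of the counting, so the values of both genes are uncertain in this part. Thra, a thyroid hormone receptor gene, also fell at day 7, by 0.59 (adjusted p = 0.000747) in type 1 and by 0.50 (adjusted p = 0.0061) in type 2 tissue on the log2 scale. Its part in the Nr1d1 result was not tested.

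Leukocyte markers moved with the groups at day 7. Of 10 markers 7 rose in type 1 and 5 in type 2 tissue, and none was at 0 in any library. The mean log2 CPM of the leukocyte markers ran from 6.90 to 7.63 in non-diabetic, 7.58 to 8.10 in type 1 and 7.66 to 8.03 in type 2 libraries, so the type 2 range did not overlap the non-diabetic range. With this leukocyte mean as a covariate the Nr1d1 change was -0.05 and 0.02 and the Cry2 change -0.06 and -0.14, with adjusted p of 0.91 or more in edgeR. The leukocyte level and the diabetic groups cannot be told apart in such a fit. Other cell type markers moved as well in type 1 tissue: 6 of 7 tested neutrophil markers rose (median log2 change 2.44), 5 of 6 erythroid markers rose (median 2.28), 6 of 8 fibroblast markers fell (median -0.48), 2 of 20 cardiomyocyte markers fell (median -0.77) and 1 of 8 endothelial markers fell. In type 2 tissue 2 of 7 neutrophil markers rose, 1 of 8 endothelial markers rose and 1 fell, and no fibroblast, cardiomyocyte or erythroid marker was called. The mean log2 CPM of the neutrophil markers ran from 0.23 to 3.52 in non-diabetic, 2.55 to 5.79 in type 1 and 1.35 to 3.46 in type 2 libraries, that of the erythroid markers from 2.00 to 3.96, 3.11 to 6.85 and 3.10 to 5.17, and that of the fibroblast markers from 10.6 to 11.0, 9.89 to 10.7 and 9.81 to 10.6. The part of the neutrophil, erythroid, fibroblast and endothelial markers in the Nr1d1 and Cry2 results was not tested. With the cardiomyocyte marker mean as a covariate all 4 calls held (Nr1d1 -0.69 and -0.63, Cry2 -0.49 and -0.56). With the level of Dbp as a covariate, chosen after the data were seen, none held, at -0.33 and -0.34 for Nr1d1 and -0.22 and -0.35 for Cry2. In tissue RNA, fewer cells of a type and less RNA per cell cannot be told apart. Library names open with a number that the labels do not explain, called the name number here. Summing a group's libraries by that number left 6, 6 and 4 libraries, and all 4 calls were lost at changes of -0.71 and -0.52 for Nr1d1 and -0.48 and -0.55 for Cry2. Type 1 replicate 4 stood apart, with a mean log2 CPM of 7.18 for adipocyte markers and 6.27 for B cell markers (group medians -1.52 and 1.55), and without it Nr1d1 was at -0.74 and Cry2 at -0.49 in type 1 tissue, both called.

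Dbp, Per3 and Ciart had changes below 0 in both diabetic groups at day 7 that did not pass the test. Dbp stood at 5.53, 17.5 and 46.2 CPM in the lowest, median and highest non-diabetic library, at 3.91, 7.585 and 22.3 in type 1 and at 5.29, 8.74 and 23.2 in type 2 tissue. The ranges overlapped widely, and the log2 changes were -1.02 (95% interval -1.86 to -0.17, edgeR adjusted p = 0.073) and -0.88 (-1.73 to -0.04, edgeR adjusted p = 0.19). Per3, a period gene of the repressor limb, had changes of -0.70 (adjusted p = 0.128) and -0.81 (adjusted p = 0.136), and Ciart of -0.51 and -0.49 (adjusted p = 0.221 and 0.337). Of Dbp's exon bases 18.0% overlap Sphk2 on the opposite strand. Leaving out type 1 replicate 1, the highest Dbp and Per3 library of its group, moved the type 1 values to -1.32 (adjusted p = 0.0223) for Dbp and -0.94 (adjusted p = 0.0389) for Per3.

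Of the activator limb, Clock had log2 changes of 0.25 (95% interval 0.04 to 0.45, adjusted p = 0.0771) in type 1 and 0.26 (0.06 to 0.47, adjusted p = 0.105) in type 2 tissue at day 7, and all 8 libraries of each group lay above the non-diabetic mean. Without non-diabetic replicate 7, its highest Clock library, both changes passed, at 0.32 (adjusted p = 0.0148) and 0.335 (adjusted p = 0.0233). Its partner Arntl stood at -0.03 (95% interval -0.53 to 0.47) and -0.11 (-0.61 to 0.39), intervals that leave room for sizeable changes either way. Per1 spread widely among non-diabetic libraries at day 7, from 45.1 to 324 CPM around a median of 66.1, with replicates 4 and 5 at 230 and 324 CPM. Type 1 libraries ran from 62.0 to 187 CPM around a median of 129, and 7 of 8 lay above the non-diabetic mean of log2 CPM. Type 2 libraries ran from 31.7 to 163 CPM around a median of 90.2. The log2 changes of Per1 were 0.16 and -0.30, Per2's -0.14 and -0.33, and Cry1's 0.16 and -0.15, with adjusted p of 0.527 or more in edgeR. Between the diabetic types at day 7 no member was called and 0 of 10 had an unadjusted p under 0.05 in edgeR, 0 were called by DESeq2, and 2.71% of all genes were called. The largest of these changes was 0.46 for Per1 (95% interval -0.36 to 1.28).

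**Figure D2:**
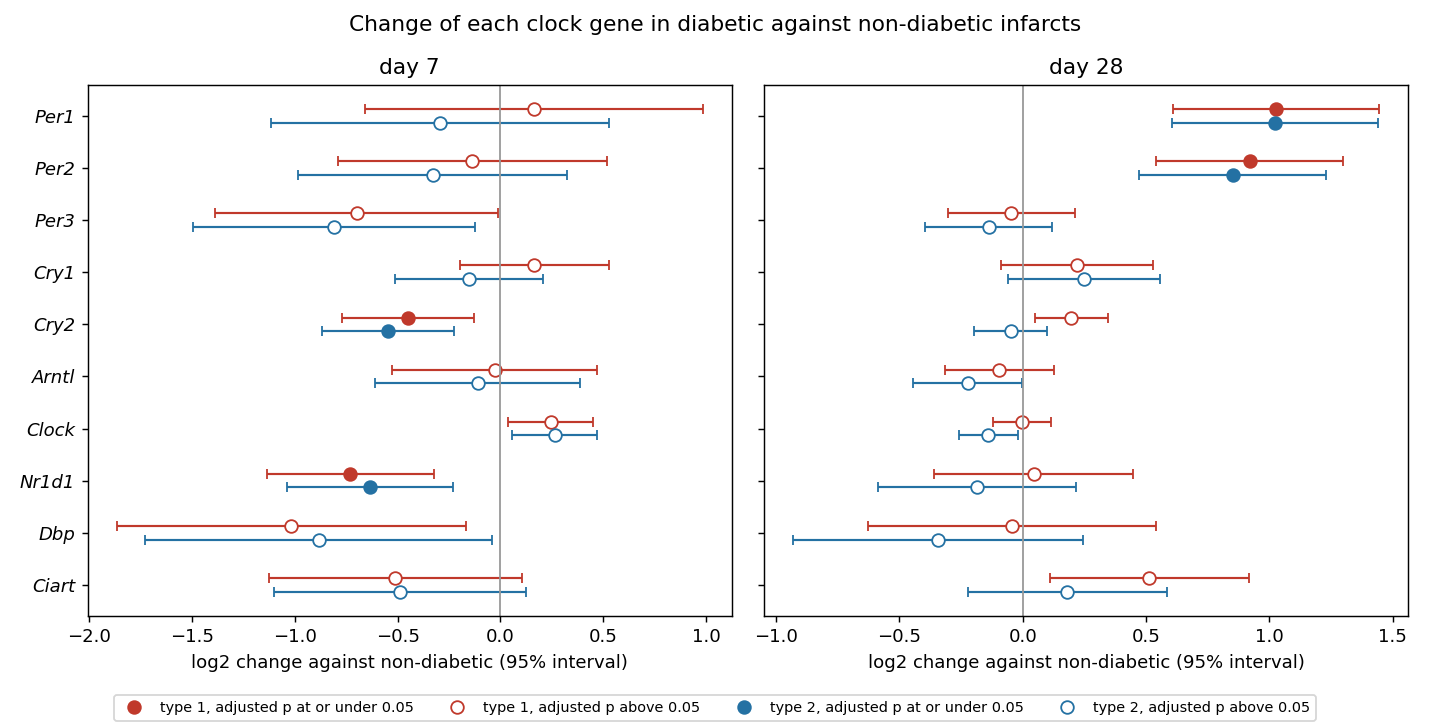
Log2 change of each clock gene against non-diabetic tissue with its 95% interval, at day 7 and day 28. Filled points passed the adjusted p of 0.05: Nr1d1 and Cry2 below 0 at day 7, and Per1 and Per2 near 1 at day 28, in both diabetic types.

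At day 28, Per1 and Per2 rose in both diabetic groups and no member fell. In type 1 infarcts 2 of 10 members were called, beside 4.02% of all 18901 tested genes in either direction and 2.6% called higher. In type 2 infarcts 2 of 10 were called, beside 10.7% in either direction and 7.21% higher. The median log2 change of the 10 genes was 0.12 in type 1 and -0.09 in type 2 tissue, beside -0.0035 and -0.0029 over all tested genes.

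Per1 stood at 18.1, 62.3 and 90.5 CPM in the lowest, median and highest non-diabetic library at day 28. Type 1 libraries had 72.8, 109 and 152 CPM and type 2 libraries 80.6, 117 and 137 CPM. In each diabetic group 9 of 10 libraries were higher than any non-diabetic library. The log2 change was 1.03 (SE 0.20, edgeR adjusted p = 0.00366) in type 1 and 1.02 (SE 0.20, edgeR adjusted p = 0.00114) in type 2 tissue, 2.04-fold and 2.03-fold, with n = 10 against 11. Per2, its close relative in the repressor limb, stood at 4.23, 8.17 and 13.6 CPM in non-diabetic, 9.71, 16.2 and 18.9 in type 1 and 9.25, 14.4 and 22.6 in type 2 libraries. Of the type 1 libraries 9 of 10, and of the type 2 libraries 6 of 10, exceeded all 11 non-diabetic libraries. Per2 changed by 0.92 (SE 0.19, adjusted p = 0.00421) and 0.85 (SE 0.19, adjusted p = 0.00278) in edgeR. All 4 calls held without any of the 31 libraries in turn, with changes from 0.93 to 1.12 for Per1 and from 0.76 to 1.01 for Per2. Type 2 replicate 4, which had a B cell marker mean of 7.48 beside a group median of 3.10, was among them: without it the type 2 changes were 1.00 for Per1 and 0.82 for Per2.

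Libraries of a group that share a name number were summed to 4 non-diabetic, 4 type 1 and 5 type 2 libraries at day 28. Per1 then stood at 1.32 (adjusted p = 0.172) in type 1 and 1.35 (adjusted p = 0.0368) in type 2 tissue, and Per2 at 1.18 (adjusted p = 0.163) and 1.00 (adjusted p = 0.0663), so 3 of the 4 calls were lost with changes as large or larger. Leukocyte markers rose at day 28 too, 1 of 10 in type 1 and 4 of 10 in type 2 tissue (median log2 change 0.09 and 0.49), and 2 of 8 fibroblast markers rose in type 1 and none in type 2 tissue. Of 8 endothelial markers 2 rose in type 2 tissue, and of 6 adipocyte markers 1 rose in type 1 tissue. Of 20 cardiomyocyte markers 1 rose in type 1 and 1 fell in type 2 tissue. The part of the fibroblast, endothelial and adipocyte markers was not tested. With the leukocyte marker mean as a covariate all 4 Per1 and Per2 calls held, at 1.07 and 1.102 for Per1 and 0.97 and 0.96 for Per2.

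Genes known to respond to glucocorticoids moved with Per1 and Per2. Of 14 such genes 10 rose in type 1 and 11 in type 2 tissue at day 28, beside 2.6% and 7.21% of all genes called higher. None fell, and the median log2 change was 0.82 and 0.98. The list was chosen with earlier results of these data known, so these counts are given as a description. Fkbp5, a co-chaperone of the glucocorticoid receptor, changed by 1.28 and 1.56, Tsc22d3 by 0.82 and 1.12, and Sgk1, a kinase, by 0.81 and 0.81. Pdk4, which restrains glucose oxidation, changed by 1.90 and 1.48 and Angptl4, an inhibitor of lipoprotein lipase, by 2.39 and 1.54, and both also respond to fatty acids. The mean log2 CPM of the 14 genes ran from 5.26 to 6.20 in non-diabetic, 6.03 to 7.04 in type 1 and 5.91 to 7.05 in type 2 libraries. With this mean as a covariate, an alternative chosen after the data were seen, no Per call held: Per1 was at 0.62 and 0.58 (adjusted p = 0.421 and 0.365) and Per2 at 0.19 and 0.04 (adjusted p = 0.846 and 0.965). The list mean nearly separates the groups, so it and diabetes cannot be told apart in that fit, and hormone levels were not tested. At day 7, where neither Per gene was called, 2 of the 14 genes rose in type 1 (Nfkbia and Angptl4) and 3 in type 2 tissue (Cdkn1a, Pdk4 and Angptl4). Of all genes 11.1% and 3.85% were called higher there, so the type 1 count is near the share of all genes. Fkbp5 was at 0.21 and 0.19 at day 7, with edgeR adjusted p of 0.742 and 0.832. The mean of the 14 genes at day 7 ran from 5.22 to 6.85 (median 5.35) in non-diabetic libraries. It ran from 5.33 to 6.73 (median 6.12) in type 1 and from 5.23 to 6.44 (median 6.07) in type 2 libraries.

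**Figure D3:**
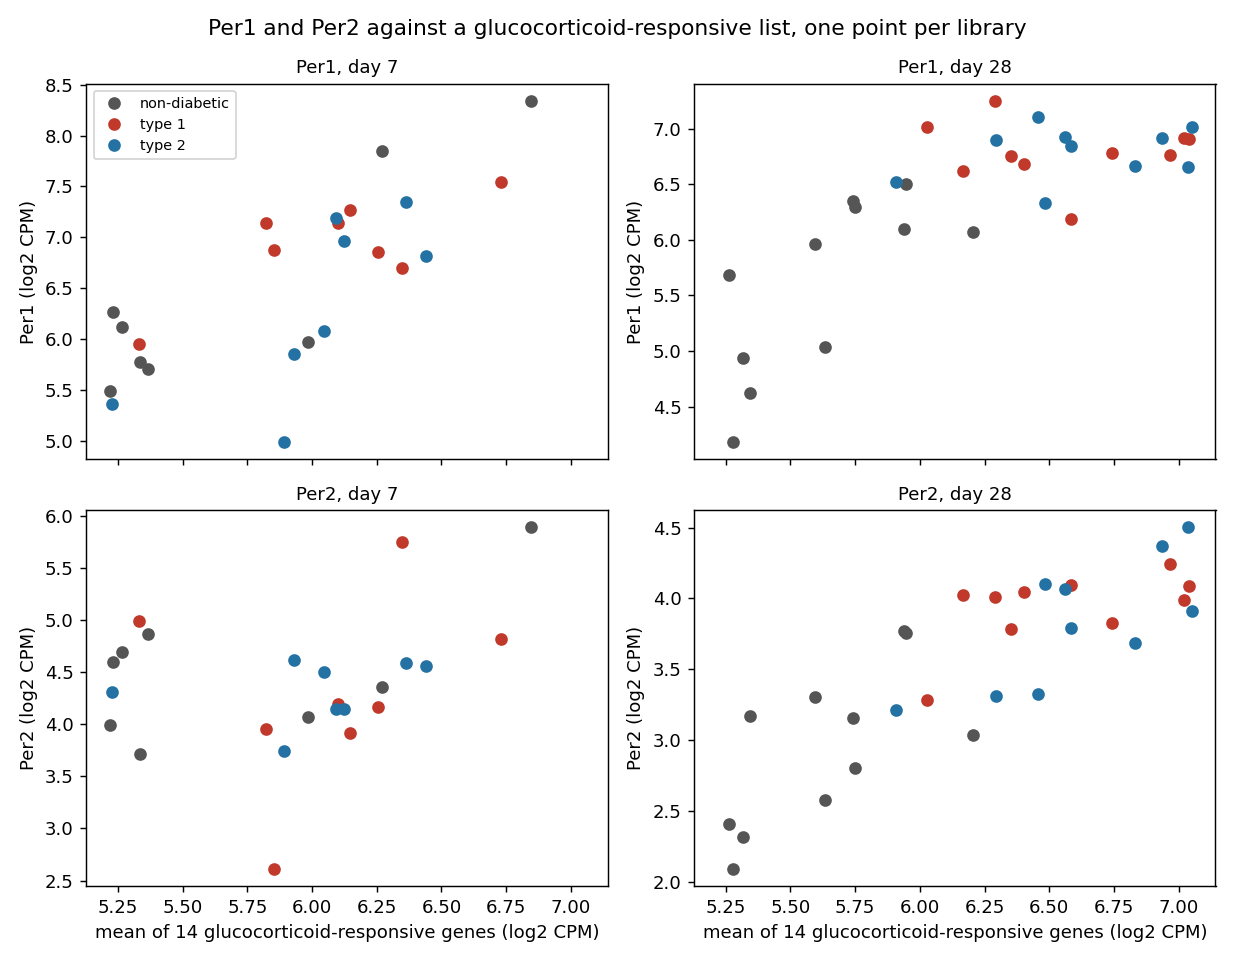
Per1 (upper row) and Per2 (lower row) in log2 CPM against the mean log2 CPM of 14 glucocorticoid-responsive genes, at day 7 (left) and day 28 (right), 1 point per library. At day 28 the non-diabetic points fill the low end of both axes (list mean 5.26 to 6.20) and the diabetic points the high end, and at day 7 the groups are mixed.

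The other 8 members were not called at day 28. Ciart in type 1 tissue stood at 0.51 (95% interval 0.11 to 0.92, adjusted p = 0.134) and Cry2 at 0.20 (0.05 to 0.34, adjusted p = 0.113). With the leukocyte or the cardiomyocyte markers as a covariate both passed, with adjusted p from 0.0206 to 0.0373. In type 2 tissue Arntl was at -0.22 (adjusted p = 0.191) and Clock at -0.14 (adjusted p = 0.123). Per3, Nr1d1 and Dbp, which share the phase of the targets named above, were at -0.05, 0.04 and -0.04 in type 1 tissue, with 95% intervals from -0.30 to 0.21, -0.36 to 0.45 and -0.63 to 0.54. In type 2 tissue they were at -0.14, -0.19 and -0.34, and Cry1 was at 0.22 and 0.25 in the 2 diabetic groups.

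Between type 1 and type 2 tissue at day 28 no member was called in edgeR, beside 3.21% of all genes, and 2 had an unadjusted p under 0.05, Cry2 and Clock. Cry2 was higher in type 1 tissue by 0.25 (95% interval 0.09 to 0.40, adjusted p = 0.0584), with a median of 31.2 CPM against 27.2, and DESeq2 called it (0.25, adjusted p = 0.039). It also passed in 3 of 31 fits without 1 library, the strongest without type 2 replicate 9 (0.28, adjusted p = 0.0373). Per1 and Per2 differed by 0.01 (-0.42 to 0.43) and 0.07 (-0.32 to 0.46).

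The change in each diabetic type against non-diabetic tissue was then compared between the days in 1 fit of all 6 groups. In type 1 tissue 3 of 10 members differed, beside 12.5% of 20421 genes, and in type 2 tissue 1 of 10, beside 1.51%. For type 1 the change was higher at day 28 than at day 7 by 1.04 for Per2 (95% interval 0.32 to 1.76, adjusted p = 0.0467), by 0.63 for Cry2 (0.31 to 0.95, adjusted p = 0.00572) and by 1.01 for Ciart (0.30 to 1.71, adjusted p = 0.0482). For type 2 the Clock change was lower at day 28 by 0.43 (adjusted p = 0.0336). Per1 was at 0.84 (adjusted p = 0.201) for type 1 and 1.28 (adjusted p = 0.108) for type 2, and Per2 at 1.14 (adjusted p = 0.088) for type 2, so a difference between days was not shown for Per1. Nr1d1 was at 0.76 (adjusted p = 0.0736) and 0.41 (adjusted p = 0.516). Marker covariates, sums by name number and leaving out 1 library were not run on these differences between days.

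Members differed in how much they varied between libraries of 1 group, with Dbp and Per1 the most variable at both days. At day 7 the SD of log2 CPM within groups was 0.87 for Dbp, 0.84 for Per1, 0.70 for Per3, 0.68 for Per2 and 0.61 for Ciart, beside a median of 0.20 over the 13094 genes whose mean log2 CPM reached 1. A smaller SD was found for 98.9%, 98.7%, 97.5%, 97.2% and 96.2% of those genes. Arntl was at 0.55 (95% of genes below), Nr1d1 at 0.42 (89%), Cry1 at 0.35 (83%) and Cry2 at 0.32 (79.1%). Clock itself was near the middle, at 0.21, with 51.5% of genes below it. At day 28 Dbp remained at 0.71 (98% of genes below) and Per1 at 0.51 (94.6%), and Nr1d1 (93.4%), Ciart (91.9%), Per2 (91.4%) and Cry1 (83.5%) followed. Per3 was at 0.31 (76.6%), Arntl at 0.26 (67.3%), Cry2 at 0.17 (40%) and Clock at 0.13 (23.8%), so Cry2 and Clock varied less than most genes at day 28.

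Libraries that share a name number were more alike in most clock genes. Among the 14 day 7 libraries that share a number within their group, the SD within a number was 0.45 for Dbp, 0.37 for Per3, 0.26 for Arntl (0.55 within groups) and 0.24 for Nr1d1 (0.42 within groups). At day 28 Nr1d1 had 0.25 within a number and 0.48 within groups. Per3 (0.32 against 0.31) and Clock (0.14 against 0.13) had no smaller SD there. In type 1 tissue at day 28 the 3 libraries of number 65 had Nr1d1 at 36.3, 61.1 and 58.9 CPM, and the 4 of number 68 had 120, 127, 134 and 134 CPM. Cry1 went the other way in the same libraries, at 16.6, 12.7 and 11.4 against 7.37, 7.62, 7.49 and 6.23 CPM. The numbers differ between groups, and their part in the group differences beyond the summed fits was not tested.

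Within groups, the relations between Arntl and 3 of its targets, and between Nr1d1 and Dbp, were computed in each of the 6 groups, 24 relations in all. Arntl ran against Nr1d1, Dbp and Per3 (negative r in 6 of 6 groups for each), and Nr1d1 ran with Dbp (positive r in 6 of 6). After Benjamini-Hochberg adjustment 13 of 24 passed by Pearson's r and 4 by Spearman's rho, in two-sided permutation tests (exact over 40320 orders with 8 libraries, 100000 resamples otherwise). These tests treat the libraries of a group as independent of each other. Libraries that share a name number were more alike in most clock genes, so the permutation p-values may be too small. By Pearson's r these were 5 of 6 groups for Nr1d1 with Dbp, 4 of 6 for Arntl with Dbp, 2 of 6 for Arntl with Nr1d1 (non-diabetic and type 1 at day 28) and 2 of 6 for Arntl with Per3 (type 1 at day 7 and non-diabetic at day 28). Arntl with Per3 had r = -0.28 in type 1 and -0.23 in type 2 tissue at day 28, and without the 2 low-Arntl libraries described below it had -0.41 in type 1 tissue at day 7. In non-diabetic tissue at day 28, Arntl with Dbp had r = -0.94 (permutation p = 7e-05, adjusted p = 0.00156) and rho = -0.87 (permutation p = 0.00093, adjusted p = 0.0112), n = 11, and r = -0.915 without the 2 libraries farthest from the Arntl median. In type 1 tissue at day 28 the same relation had r = -0.81 (permutation p = 0.00476, adjusted p = 0.0228) and rho = -0.86 (permutation p = 0.00276, adjusted p = 0.0166), n = 10, and r = -0.945 without the 2 farthest. In type 2 tissue it had r = -0.415 (permutation p = 0.235, adjusted p = 0.282) and rho = -0.44 (permutation p = 0.206, adjusted p = 0.26), n = 10. Whether the groups differ in this was not tested.

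At day 7 the type 1 and type 2 groups each held 2 libraries with low Arntl that stood apart, type 1 replicates 1 and 2 (13.5 and 10.4 CPM) and type 2 replicates 1 and 2 (17.0 and 20.9 CPM). These type 1 libraries share name number 4, and the type 2 libraries carry name numbers 1 and 2. Among the other 6 libraries Arntl with Dbp had r = -0.445 in type 1 and 0.025 in type 2 tissue, so in type 2 tissue the negative relation rests on those libraries and in type 1 tissue it was weaker without them. Nr1d1 with Dbp held in each group of day 28, with r = 0.87 (permutation p = 0.00031, adjusted p = 0.00248) in non-diabetic, 0.97 (permutation p = 0.00013, adjusted p = 0.00156) in type 1 and 0.75 (permutation p = 0.0126, adjusted p = 0.0252) in type 2 tissue. The matching rho was 0.87 (adjusted p = 0.0112), 0.76 (adjusted p = 0.0599) and 0.71 (adjusted p = 0.0618), by permutation. The limit on permutation p-values given above holds here too. Within libraries that share a name number, pooled over groups, r was -0.60 at day 7 and -0.50 at day 28 for Arntl with Dbp and 0.77 and 0.68 for Nr1d1 with Dbp, over 14 and 26 libraries. For Arntl with Nr1d1 it was -0.255 and -0.42, and for Arntl with Per3 -0.82 and -0.43. No number held more than 5 libraries, too few for a value of its own.

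**Figure D4:**
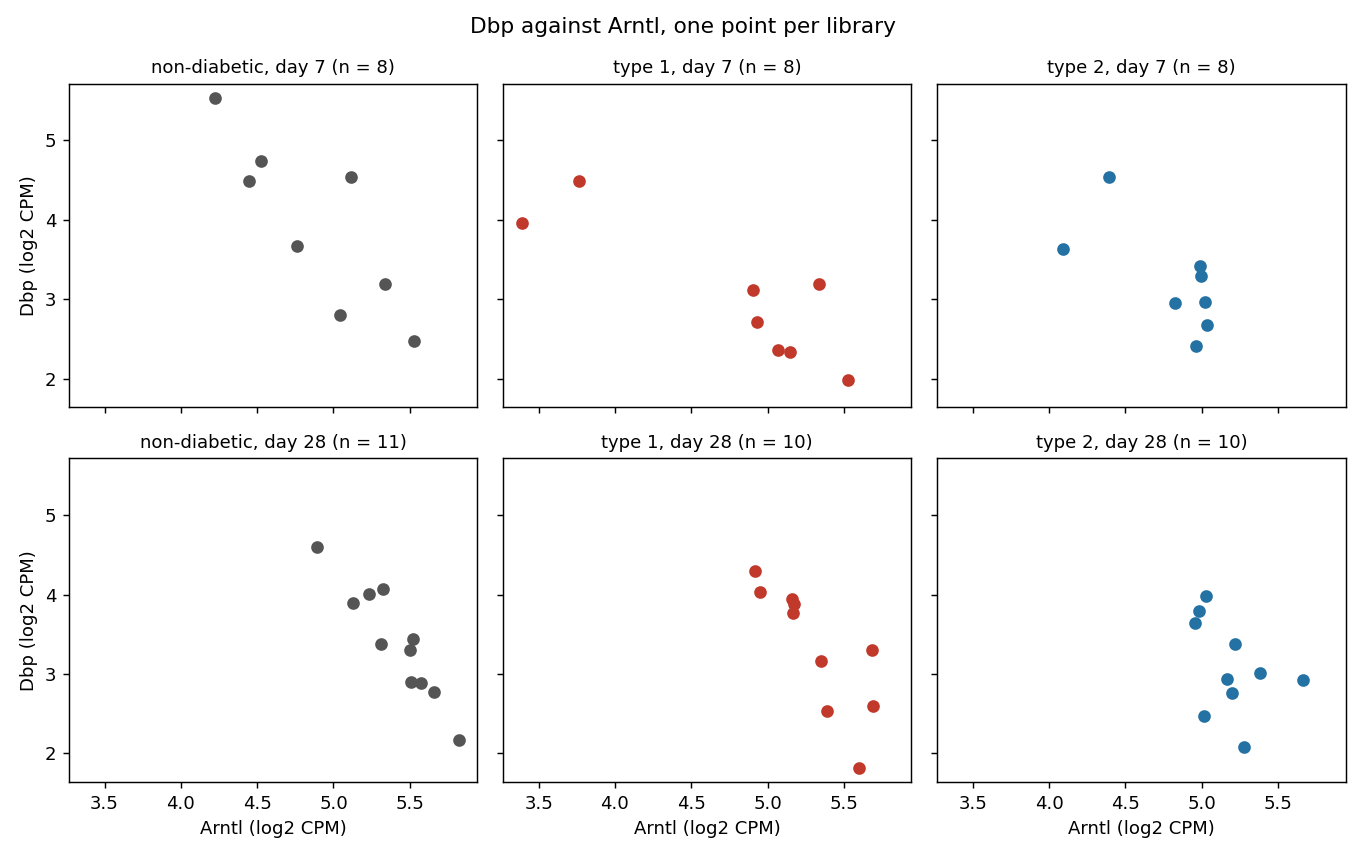
Dbp against Arntl in log2 CPM, 1 point per library, in the 6 groups. Dbp falls as Arntl rises in non-diabetic tissue at both days and in type 1 tissue at day 28, and each diabetic group of day 7 holds 2 libraries with low Arntl, without which r was -0.445 in type 1 and 0.025 in type 2 tissue.

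The genes outside the 10 whose levels followed Dbp and Arntl most closely across libraries were found by Pearson's r after removal of group means. At day 7 the 5 closest non-member genes were Tef (r = 0.92), Hlf (0.90), Nr1d2 (0.90), Cpeb1 (0.84) and Zfp346 (0.80), over 24 libraries. Tef and Hlf encode transcription factors of the same family as Dbp, and Nr1d2 encodes REV-ERB beta. At day 28 they were Nr1d2 (0.77), Tef (0.64), Zfp949 (0.62), Rhebl1 (0.62) and Inf2 (0.62), over 31 libraries. Closest to Arntl at day 7 were Npas2 (0.93), which encodes a relative of CLOCK that also pairs with the Arntl protein, Plat (0.83), Adam19 (0.78), Sh3pxd2b (0.75) and Dpy19l3 (0.74). At day 28 they were Syt17 (0.74), Npas2 (0.73), Adgra3 (0.72), Sertad4 (0.71) and Rgl1 (0.67). Among the members, r with Dbp at day 7 was 0.92 for Per3, 0.77 for Nr1d1, 0.76 for Ciart, 0.64 for Per2, 0.62 for Cry2, 0.20 for Cry1, -0.26 for Per1, -0.60 for Clock and -0.78 for Arntl. At day 28 it was 0.87 for Nr1d1, 0.64 for Per3, 0.63 for Ciart, 0.46 for Cry2, 0.22 for Per2, 0.09 for Per1, -0.33 for Clock, -0.70 for Cry1 and -0.77 for Arntl. Per1 and Cry1 had r of 0.20 or less with Dbp on both days, and Cry1 had r = 0.57 with Arntl at day 28. These values share libraries and depth and are given as descriptions.

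The 22 partners and outputs of the clock were all tested at both days. At day 7 in type 1 tissue 1 of 22 rose and 1 fell, beside 22.5% of all genes called in either direction. Tipin, a partner of Timeless, rose by 0.51 (SE 0.11, adjusted p = 0.00263). Rora, which encodes an activator of Arntl, fell by 0.28 (SE 0.07, adjusted p = 0.00751). In type 2 tissue 0 of 22 were called by edgeR, beside 7.35% of all genes. There 7 had an unadjusted p under 0.05, as had 4148 of all 18165 tested genes. At day 28, 3 of 22 rose in each diabetic group and none fell. Of all genes 2.6% were called higher in type 1 and 7.21% in type 2 tissue. Csnk1d and Csnk1e, the casein kinases that mark PER proteins for breakdown, rose by 0.18 and 0.27 in type 1 and by 0.16 and 0.14 in type 2 tissue. Wee1, a cell cycle kinase gene under clock control, rose by 0.47 (adjusted p = 0.0242) and 0.57 (adjusted p = 0.00215). The median log2 change of the 22 genes was -0.06 and -0.15 at day 7 and 0.07 and 0.01 at day 28. Nr1d2, the relative of Nr1d1, was at -0.27 and -0.23 at day 7 (adjusted p = 0.271 and 0.449) and was not called.

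**Figure D5:**
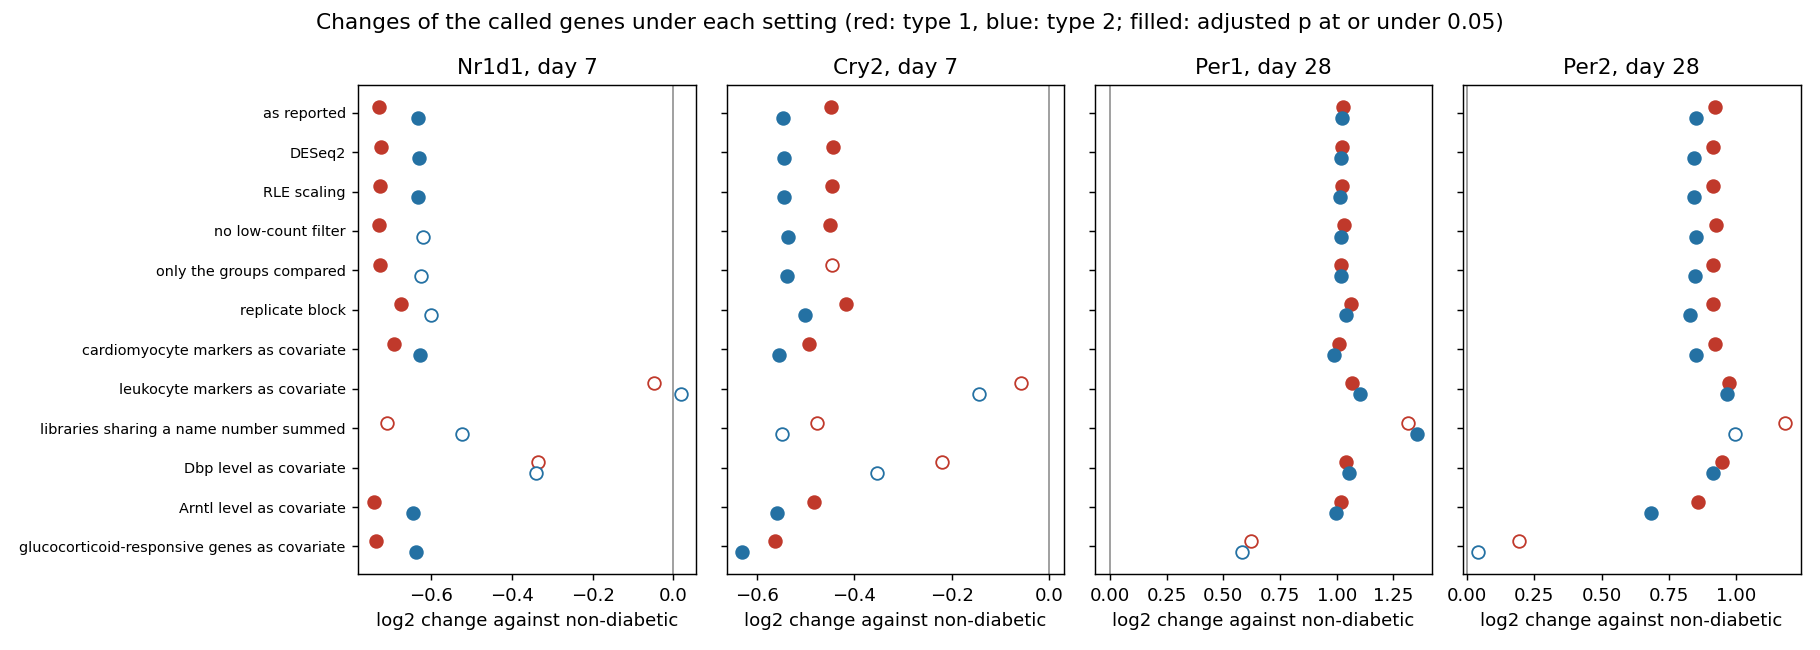
Log2 change of the 4 called genes against non-diabetic tissue under each way of fitting, with type 1 in red and type 2 in blue. Filled points have an adjusted p at or under 0.05. Nr1d1 and Cry2 at day 7 move to near 0 with the leukocyte covariate, and Per1 and Per2 at day 28 shrink with the glucocorticoid-responsive covariate.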

How the data were processed

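RNA-seq counts of 55 libraries from infarcted mouse left ventricle were used. The authors deposited raw counts per Ensembl gene in a table for each day. The submitters' processing notes name the build mm39 and the tool DESeq2, and per the labels' protocols the kit selects mRNA and keeps strand. Neither aligner nor counter nor strand setting was given in the sources used here. Of counts from 1 to 49, 76.4% were even at day 7 and 75.2% at day 28. Gene symbols came from GENCODE M21 by Ensembl identifier, and all 55 columns matched 1 sample each.

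The counts were tested in R 4.3.3 with edgeR 4.0.16: TMM scaling, filterByExpr (minimum count 10, total 15), glmQLFit and glmQLFTest, with the 3 groups of a day in 1 fit and all 6 groups for the difference between days. SE is the change divided by the square root of F, and 95% intervals use the residual degrees of freedom of the libraries. Alternatives were DESeq2 1.42.0, RLE scaling, no low-count filter, the compared groups alone, the replicate number as a block, marker covariates, sums by name number and each library left out in turn. The difference between days was refitted only with DESeq2, RLE scaling, no low-count filter and the replicate block. The levels of Dbp and Arntl and the glucocorticoid-responsive mean were added as covariates after the data were seen. The members, the lists of clock partners (22) and glucocorticoid-responsive genes (14), the markers and the tests were chosen with earlier results of these data known. Motifs were chosen later. All members are named, list genes where called or central to a result, and the 5 genes closest to Dbp and to Arntl by Pearson's r. The count tests were tested on simulated data. The lowest count of any member in any library was 24, for Ciart.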

Additional observations from a re-analysis of the deposited data

Results flagged for a closer look

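Per2 in type 1 tissue at day 28 had 1 library far below the others: replicate 9 stood at a log2 CPM of 3.28 and the next at 3.78. Its gap was 0.519 of the group's range, above the critical share of 0.466 for 10 libraries. This was the sole such case among 50 combinations of gene and group examined, and chance alone gives about 1 in 20. The non-diabetic group of day 28 was not examined, because the critical shares used end at 10 libraries and it has 11.

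The change against non-diabetic tissue differed between the days, by a test of the difference itself, for 3 genes in type 1 tissue and 1 in type 2. The day 28 minus day 7 difference was 1.04 for Per2, 0.63 for Cry2 and 1.01 for Ciart in type 1 tissue, and -0.43 for Clock in type 2 tissue. The library names of the days also differ in a shared number, which cannot be told apart from the day.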

How the results depend on the processing

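The number of called members, in the order type 1 and type 2 against non-diabetic tissue, was 2 and 2 at day 7 and 2 and 2 at day 28, 0 between the diabetic types on either day, and 3 and 1 for the difference between days. DESeq2 gave 1 between the types at day 28 and 2 for type 2 between days, and RLE scaling moved none of these counts beyond 1.5 times. Without the low-count filter type 2 at day 7 had 1, and the differences between days 1 and 0. With the compared groups alone day 7 had 1 and 1. With cardiomyocyte markers as a covariate type 1 at day 28 had 4 and the types at day 28 differed in 1. With leukocyte markers it was 0 and 0 at day 7 and 4 for type 1 at day 28. Summed by name number it was 0 and 0 at day 7 and 0 and 1 at day 28. Leaving out 1 library gave 1 to 3 and 0 to 3 at day 7, and 0 to 1 between the types at day 28. Of the covariates chosen after the data were seen, Dbp gave 0 and 0 at day 7, Arntl 5 and 4 at day 7, 4 for type 2 at day 28 and 1 between the types at day 28, and the glucocorticoid-responsive genes 0 and 1 at day 28. The cause was not tested.

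With the replicate number as a block, type 1 at day 7 had 5 called members (Per3, Cry2, Clock, Nr1d1 and Dbp), type 2 at day 7 had 1, and type 1 between days had 1. The labels do not say whether the replicate numbers pair the libraries, and pairing was not tested. Deviations of same-numbered libraries correlated above 0.1 in 0 of 10 to 5 of 8 pairs of a comparison. The closest library of the other group had the same number in 0 of 10 to 3 of 8 cases. Under the block Dbp in type 1 at day 28 was at 0.014, and between the types at day 7 Per3 was at -0.071 and Arntl at -0.0065.

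Changes between days had fewer alternatives, without covariates, sums by name number or libraries left out. Of 80 member changes 12 were called, and 1 of these took the other sign under an alternative, Nr1d1 in type 2 at day 7 with the leukocyte covariate (0.020). Of the 68 that were not called 28 did, with these values. Leukocyte covariate, day 7: Per2 0.27, Dbp 0.045 and Ciart 0.20 in type 1, and Per2 0.10, Dbp 0.11 and Ciart 0.21 in type 2. Leukocyte covariate, day 28: Dbp 0.072 in type 1, Cry2 0.044 in type 2 and Per1 -0.035 between types. Cardiomyocyte covariate: Per1 -0.14 in type 1 and Dbp 0.088 between types at day 7, and Clock 0.0069 in type 1 and Cry2 0.0014 in type 2 at day 28. Summed by name number: Arntl 0.017 in type 1, and Per3 -0.23 and Clock 0.011 between types, at day 7. At day 28 sums gave Per3 0.0415, Clock 0.010, Nr1d1 -0.043 and Dbp 0.021 in type 1 and Per1 -0.038 between types. Without the filter Clock in type 1 at day 28 was at 0.0001. Dbp covariate, day 7: Per1 -0.12, Per2 0.29 and Ciart 0.082 in type 1, Per2 0.14 and Ciart 0.043 in type 2, and Arntl -0.094, Nr1d1 0.0071 and Ciart 0.039 between types. At day 28 it gave Per3 0.0005 in type 1, and Per1 -0.014 and Cry1 0.0038 between types. Arntl covariate: Per3 -0.12 between types at day 7, and Clock 0.0115 and Nr1d1 -0.14 in type 1 and Ciart -0.063 in type 2 at day 28. Glucocorticoid-responsive covariate: Per1 -0.074 in type 1 at day 7. At day 28 it gave Per3 0.005, Arntl 0.19 and Nr1d1 -0.61 in type 1, and Arntl 0.10 and Ciart -0.33 in type 2.

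Leaving out 1 library gave these ranges across 0 at day 7: in type 1 Per2 -0.43 to 0.17 and Arntl -0.13 to 0.11. In type 2 they were Per1 -0.46 to 0.15, Cry1 -0.22 to 0.0098 and Arntl -0.19 to 0.0032. Between types they were Per2 -0.10 to 0.34, Per3 -0.14 to 0.27, Arntl -0.028 to 0.21, Clock -0.054 to 0.021, Dbp -0.44 to 0.15 and Ciart -0.16 to 0.10. At day 28 they were, in type 1, Per3 -0.12 to 0.0053, Clock -0.0245 to 0.028, Nr1d1 -0.023 to 0.14 and Dbp -0.16 to 0.11, and between types Per1 -0.053 to 0.060 and Cry1 -0.14 to 0.031. RLE scaling or a prior count of 0.5 moved r by at most 0.022.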
